A study of Homo sapiens with 8 samples.

Results

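The forkhead genes FOXC1, FOXC2, FOXD1, FOXD2, FOXD3, FOXE1, FOXF1, FOXF2 and FOXL1 were examined for H3K27me3 and H3K4me3 in PC9 cells, a human lung adenocarcinoma line. These 9 genes were chosen by name out of 20133 protein-coding genes of the annotation, and all of them were measured. Each gene was taken as its body plus 2 kb upstream of its start on GRCh37. The value per library is the share of these bases under islands, which are the enriched intervals that the authors called library by library. The cells were kept in DMSO, the solvent control, or in 1 µM GSK126, an inhibitor of the H3K27 methyltransferase EZH2, for 5 days. Each of the 4 groups (H3K27me3 or H3K4me3, DMSO or GSK126) held 2 libraries. All libraries came from the same line, carried Drosophila melanogaster chromatin as a spike-in and were precipitated with an added antibody to the fly histone H2Av. The labels do not number the replicates, which the study describes as biological.

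Forkhead proteins are transcription factors that bind DNA through a winged-helix domain, and many of them direct the formation of mesoderm, gut, lung mesenchyme, kidney, thyroid or neural crest. EZH2 is the catalytic subunit of Polycomb repressive complex 2, which places the repressive mark H3K27me3, often over long domains that hold developmental regulators. H3K4me3 marks the start regions of active or poised genes, and a stretch that carries both marks is called bivalent. Many genes of this kind start in DNA rich in CG dinucleotides.

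The 300 bases before the start of 4 of the genes are printed below the way they read on the gene strand (plus for all 4), from 5′ to 3′, with each CG in capitals. FOXF2 stands for genes under H3K27me3, FOXD2 and FOXE1 for genes under H3K4me3, and FOXD3 for a gene with less than 10% of its length under either. The sequences are the GRCh37 reference at chr6:1389511-1389810 (FOXF2), chr1:47903416-47903715 (FOXD2), chr9:100615208-100615507 (FOXE1) and chr1:63787938-63788237 (FOXD3).
FOXF2: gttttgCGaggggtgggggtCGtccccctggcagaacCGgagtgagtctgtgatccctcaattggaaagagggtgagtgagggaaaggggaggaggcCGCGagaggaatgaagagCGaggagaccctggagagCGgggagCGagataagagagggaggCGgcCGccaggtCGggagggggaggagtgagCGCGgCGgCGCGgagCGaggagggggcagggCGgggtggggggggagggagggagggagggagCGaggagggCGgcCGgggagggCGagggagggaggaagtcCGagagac
FOXD2: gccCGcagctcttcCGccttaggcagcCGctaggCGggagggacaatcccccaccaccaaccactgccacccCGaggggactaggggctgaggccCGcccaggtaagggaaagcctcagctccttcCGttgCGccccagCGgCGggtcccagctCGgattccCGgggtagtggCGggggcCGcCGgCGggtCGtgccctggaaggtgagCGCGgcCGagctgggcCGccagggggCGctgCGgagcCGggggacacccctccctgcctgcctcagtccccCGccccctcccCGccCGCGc
FOXE1: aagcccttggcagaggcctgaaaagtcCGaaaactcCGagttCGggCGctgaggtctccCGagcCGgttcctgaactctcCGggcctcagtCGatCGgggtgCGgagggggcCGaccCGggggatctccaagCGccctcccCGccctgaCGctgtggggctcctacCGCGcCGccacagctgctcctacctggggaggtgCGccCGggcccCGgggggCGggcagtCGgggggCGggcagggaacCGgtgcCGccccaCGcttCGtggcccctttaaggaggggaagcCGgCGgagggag
FOXD3: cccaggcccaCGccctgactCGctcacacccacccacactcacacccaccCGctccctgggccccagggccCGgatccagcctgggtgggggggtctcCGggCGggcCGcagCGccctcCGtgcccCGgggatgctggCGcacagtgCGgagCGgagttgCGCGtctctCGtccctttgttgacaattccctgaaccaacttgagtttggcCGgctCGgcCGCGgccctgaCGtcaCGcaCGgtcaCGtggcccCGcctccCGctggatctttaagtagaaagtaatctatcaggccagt

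The CG pair, which reads the same on both strands, occurred 23 times in these 300 bases of FOXF2, 28 times in FOXD2, 30 times in FOXE1 and 26 times in FOXD3. Over 20129 protein-coding genes the median was 16, with quartiles of 5 and 26. At least as many CG pairs as in FOXF2 were present in 33.4% of all promoters of this length, and at least as many as in FOXE1 in 18.8%. Among genes not printed, the same stretch held 42 pairs (FOXC1), 21 (FOXL1), 19 (FOXC2) and 13 (FOXD1). FOXC2, FOXF2 and FOXL1 thus spanned 19 to 23 pairs and the genes with H3K4me3 13 to 42, so the 2 ranges overlapped. The printed stretches of FOXD2 and FOXE1 lay entirely under H3K4me3 in every library. That of FOXF2 lay under no island, since its H3K27me3 island began inside the gene.

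Each library of H3K27me3 is represented by 2 lists of islands. In the standard lists both libraries of a replicate had the same number of tags (sequenced fragments), the larger having been cut at random to the smaller. In the spike-in lists the DMSO library kept all its tags and the GSK126 library was cut to the depth that the fly chromatin called for. The lists hold no tag totals, but the scores of the shortest islands return the mean tags per 200-bp window. With GSK126 this density in the spike-in lists was 23.1% and 19.6% of the DMSO density for H3K27me3 (replicates 1 and 2). For H3K4me3 it was 83.6% and 86.9%. These percentages equal the ratios that the paper gives when fly tags are counted over the whole fly genome. Its main method counted fly tags in H2Av-bound regions alone, which gave a higher ratio for H3K27me3 in replicate 2. The spike-in lists thus rest on the whole-genome count. The H3K4me3 DMSO libraries, which have a single list used with both, differed in depth, with 1.77 tags per window in replicate 1 and 0.302 in replicate 2. Lists held 16401 to 35901 islands. With 2 pairs of libraries an exact sign-flip test cannot go below 0.5, and an exact permutation of 2 against 2 libraries cannot go below 0.333 (both two-sided). No p-value is therefore given. A gene was called lower or higher where its covered share differed by at least 10 percentage points the same way in both replicates, and each count is set beside the share of all protein-coding genes that could pass and did.

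In DMSO 4 of the 9 genes were under H3K27me3 alone, 4 under H3K4me3 alone and 1 (FOXD3) under neither by the rule used here. FOXF1, FOXL1, FOXC2 and FOXF2 had at least 10% of their length under H3K27me3 in both replicates, FOXC1, FOXD1, FOXD2 and FOXE1 had at least 10% under H3K4me3, and no gene passed for both. For comparison, 21.3% of all protein-coding genes passed for H3K27me3, 27.4% for H3K4me3 and 3.44% for both. None of 9 genes is close to that last share. Not a single base of the 9 genes lay under both marks in DMSO in either replicate, nor with GSK126 in the spike-in lists. Bases under both marks were not counted over all genes. The plot gives the covered shares for every library.

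**Figure D1:**
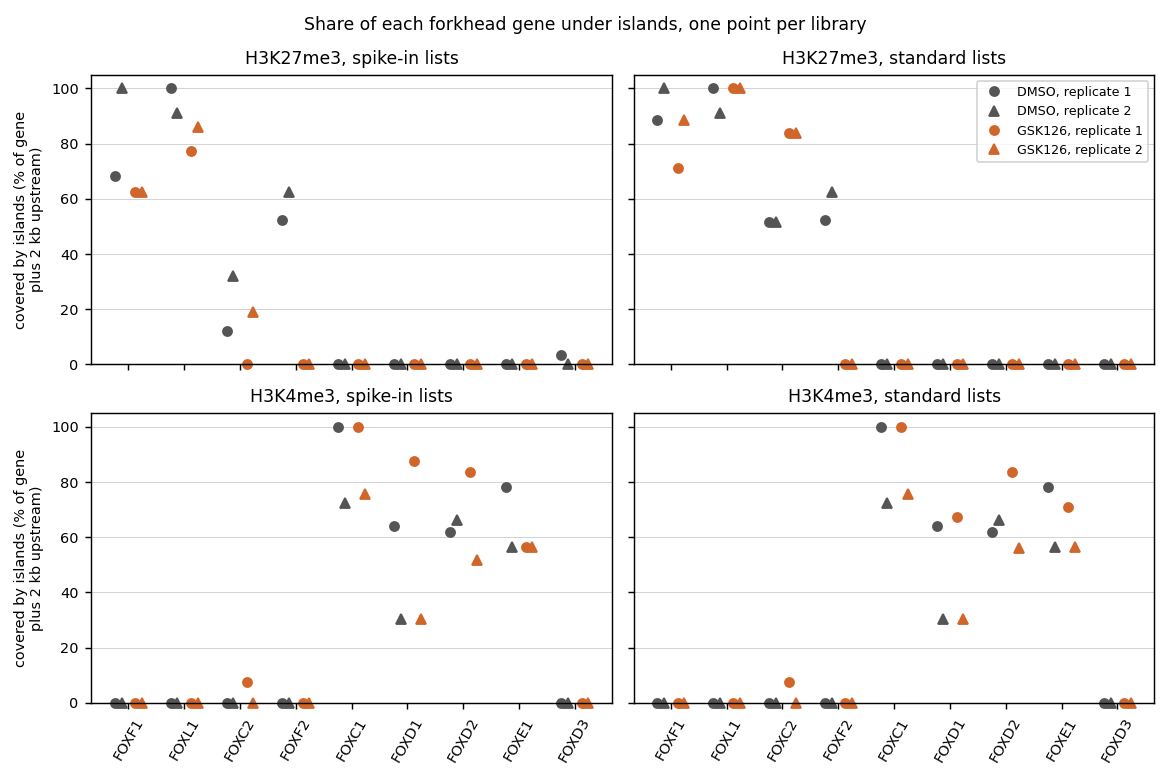
Share of each gene plus 2 kb upstream (%) under H3K27me3 islands (top) and H3K4me3 islands (bottom), in the spike-in lists (left) and the standard lists (right). Each point is 1 library, grey for DMSO and orange for GSK126; FOXF1, FOXL1, FOXC2 and FOXF2 carry points above 0 for H3K27me3 in DMSO, FOXD3 has a single one at 3.57%, and FOXF2 is at 0 in all GSK126 libraries.

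Among the genes under H3K27me3, only FOXF2 had no island left in both GSK126 libraries, and this held in both kinds of list. FOXF1 and FOXL1 stayed covered over at least 62.3% of their length in the spike-in lists, while the tags behind the islands were 0.309-fold and 0.354-fold those in DMSO. In the spike-in lists 2 of the 4 genes that could pass were called lower for H3K27me3, FOXC2 and FOXF2, where 73.6% of all protein-coding genes that could pass were. None of 7 was called higher, against 0.0158% of all genes. Over the whole genome, H3K27me3 islands covered 275 and 300 Mb in DMSO and 127 and 133 Mb with GSK126 in the spike-in lists. In the standard lists they covered 279 and 258 Mb in DMSO and 241 and 189 Mb with GSK126. Less coverage with GSK126 was thus not particular to the forkhead genes. Over all 9 genes the covered length was 18.8 and 21.8 kb in DMSO and 11.3 and 13.1 kb with GSK126, a log2 ratio of -0.73 ± 0.0060 (mean ± SD, n = 2 replicates). It was 21.9 and 22.7 kb in DMSO and 18.1 and 19.3 kb with GSK126 in the standard lists, a log2 ratio of -0.26 ± 0.029 (n = 2), and within 2 kb of the gene starts alone this ratio was 0.0068. Pooled over the genes that had islands in each library, score-implied tags had a log2 ratio of -1.41 ± 0.093 in the spike-in lists. In the standard lists it was 0.67 ± 0.42 (n = 2 each). The pooled genes were not the same in both groups, since FOXF2 had islands in DMSO alone. Mean ratios of single genes were -1.70 (FOXF1) and -1.50 (FOXL1) in the spike-in lists. They were 0.36 (FOXC2), 0.57 (FOXF1) and 0.66 (FOXL1) in the standard lists.

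FOXF2 (chr6:1389811-1395838, plus strand) encodes a factor of gut and craniofacial mesenchyme. Its DMSO libraries had a single H3K27me3 island each, of 4.2 kb over 52.3% of the region in replicate 1 and of 5 kb over 62.3% in replicate 2, with the same bounds in the spike-in and the standard lists. Both GSK126 libraries were at 0 in both kinds of list, so the groups did not overlap. Loss of every island was found in 23.3% of all genes that could pass in the spike-in lists and in 6.29% in the standard lists. The next H3K27me3 island lay 53.4 and 52.8 kb away with GSK126 in the spike-in lists, and 3.16 and 29.4 kb away in the standard lists.

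The depth sets what this 0 can mean. The score of an island, spread over its windows, corresponds to a number of tags per window if all windows were alike, called score-implied tags here. FOXF2 in DMSO had 5.85 and 7.22 score-implied tags per window in the spike-in lists, a level under that of FOXF1. Among GSK126 islands of 20 to 26 windows, the sizes of the FOXF2 islands and close to them, the lowest level on the spike-in lists was 0.994 in replicate 1 and 1.11 in replicate 2. In the standard lists that lowest level was 2.95 and 2.33, while FOXF2 in DMSO had 5.16 and 4.44. The lowest levels are those of single islands, out of 3574 and 3144 in the GSK126 spike-in lists, and not a fixed limit. The 5th percentiles were 1.28 and 1.42 in those lists and 3.28 and 3.19 in the GSK126 standard lists. DMSO levels in the spike-in lists belong to a greater depth, since GSK126 had 23.1% and 19.6% of the DMSO density. They cannot be set directly against the GSK126 levels. How much H3K27me3 could lie at FOXF2 with GSK126 without an island was not tested.

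FOXF1 (chr16:86544133-86549028, plus strand), a factor of lung and gut mesenchyme, lay inside a far longer H3K27me3 domain. In the spike-in lists 68.1% and 100% of it were covered in DMSO and 62.3% in each GSK126 library. Both GSK126 libraries were lower, but in replicate 1 by less than 10 points, and the gene missed the call. The standard lists gave 88.4% and 100% in DMSO and 71.0% and 88.4% with GSK126, and the gene was called lower, although the lower DMSO library and the higher GSK126 library were equal. Score-implied tags per window were 10.9 and 17.4 in DMSO against 3.38 and 5.34 with GSK126 in the spike-in lists, a log2 ratio of -1.69 and -1.70. They were 9.52 and 11.6 in DMSO against 11.3 and 21.4 with GSK126 in the standard lists, a log2 ratio of 0.25 and 0.89. The direction of the tags at FOXF1 thus turned with the normalization, which changes the number of tags over the whole genome, whereas its coverage was lower with GSK126 in both replicates of either kind of list.

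FOXL1 (chr16:86609974-86617084, plus strand) encodes a factor of the mesenchyme beneath the gut epithelium. Its coverage in the spike-in lists was 100% and 91.2% in DMSO and 77.1% and 85.9% with GSK126, and in the standard lists 100% and 91.2% in DMSO and 100% in both GSK126 libraries. Score-implied tags per window were 8.23 and 13.8 in DMSO against 2.84 and 5.01 with GSK126 in the spike-in lists, a log2 ratio of -1.53 and -1.46. The standard lists gave 6.63 and 8.38 in DMSO against 8.92 and 15.5 with GSK126, a log2 ratio of 0.43 and 0.88. In these tags, though not in coverage, every GSK126 library stood on the same side of its own DMSO library as at FOXF1.

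Both genes with islands in all 4 spike-in libraries, FOXF1 and FOXL1, had fewer score-implied tags with GSK126 in both replicates, as did 99.7% of 3121 genes of this kind. The median log2 ratio over those genes was -1.55 and -1.71 in the 2 replicates, and the mean ratio of FOXF1 stood at percentile 42.8 and that of FOXL1 at percentile 64.9. By the standard lists, 3 of 3 genes (FOXC2, FOXF1 and FOXL1) had more tags in both replicates, against 54.5% of 4114 genes with medians of 0.13 and 0.20. This count leaves out FOXF2, which had no GSK126 island to score, so it does not give the direction of all 4 genes under H3K27me3. The percentiles there were 70.3 for FOXC2, 84.5 for FOXF1 and 88.5 for FOXL1. FOXC2 and FOXL1 shared an island in 5 of the 8 H3K27me3 lists and FOXF1 lies in the same neighbourhood, so they are not separate observations.

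**Figure D2:**
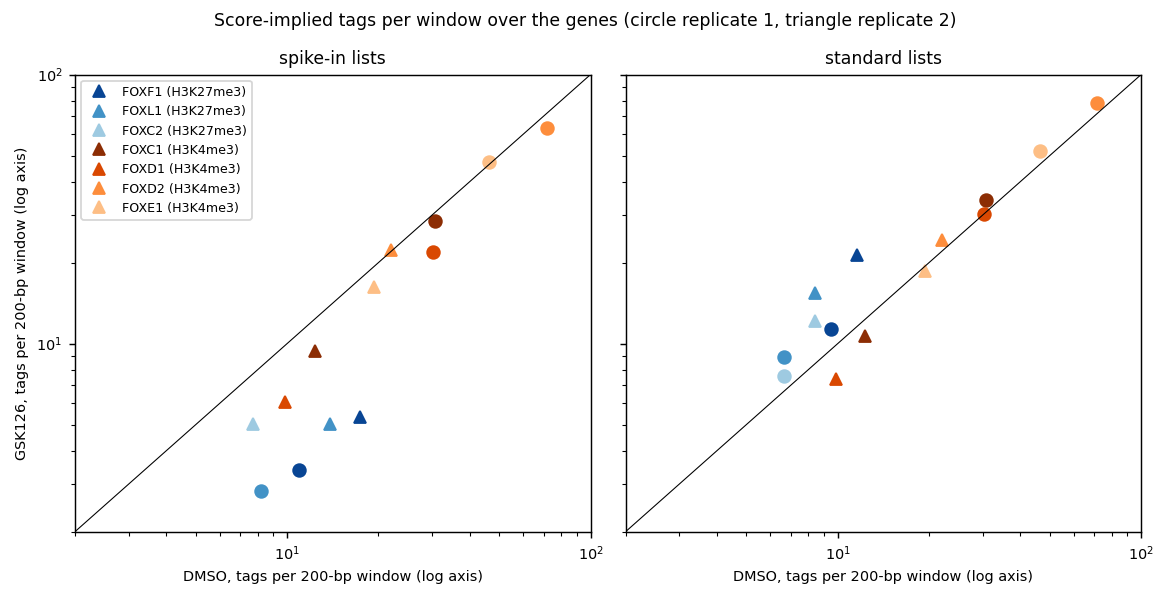
Score-implied tags per 200-bp window (log axes) with GSK126 against DMSO of the same replicate, in the spike-in lists (left) and the standard lists (right); blue points are H3K27me3 and red to orange points H3K4me3, circles replicate 1 and triangles replicate 2, and the line marks equal values. FOXF1 and FOXL1 sit well under the line on the left (0.309-fold and 0.354-fold) and above it on the right. The H3K4me3 points lie nearer the line, with FOXD1 the farthest under it on the left (0.668-fold).

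FOXC2 (chr16:86600435-86603334, plus strand), a factor of vessel and lymphatic development, lay at the border of an H3K27me3 domain, and its call turned with the normalization. In the spike-in lists 12.2% and 32.0% were covered in DMSO and 0% and 19.1% with GSK126, so it was called lower although the DMSO value of replicate 1 was under the GSK126 value of replicate 2. This call was lost under the stricter threshold, the minimum island length, the gene body alone, the 2 kb either side of the start and the 20-point rule. The DMSO coverage came from an island of 0.6 kb inside the gene in replicate 1 and from 1 of 1.6 kb upstream of it in replicate 2. Coverage in the standard lists was 51.7% in each DMSO library and 83.7% in each GSK126 library, and FOXC2 was called higher, 1 of 7 genes, where 0.227% of all genes were. That call was lost under the stricter threshold, the minimum island length and the gene body alone. In those lists 2 of the 4 genes that could pass, FOXF1 and FOXF2, were called lower, against 25.2% of all genes. The replicate 1 DMSO library gave 12.2% with 1.65 tags per window and 51.7% when cut to 1.36, so fewer tags went with more coverage at this gene.

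The 3 genes on chromosome 16 stand close together: 51.4 kb separate FOXF1 from FOXC2, and 6.64 kb FOXC2 from FOXL1. From 100 kb before FOXF1 to 50 kb past FOXL1 (chr16:86444133-86667084), H3K27me3 islands covered 178 and 181 kb of 223 kb in DMSO and 153 and 163 kb with GSK126 in the spike-in lists. They covered 183 and 185 kb in DMSO and 189 and 179 kb with GSK126 in the standard lists. Most of the region thus stayed covered in every list, while the score-implied tags over it went from 10.9 and 15.1 to 3.95 and 5.77 in the spike-in lists and from 8.84 and 9.87 to 12.4 and 18.5 in the standard lists. The island that reached FOXF1 from upstream was 87.6 kb long in DMSO replicate 1 in the spike-in lists. In replicate 2 it was part of a single island of 107.8 kb. With GSK126 in those lists the island next to FOXF1 was 34 and 43 kb long, and the stretch was broken into separate islands. The broken stretch still began at -88532 and -88132 bp from the FOXF1 start, against -88532 and -89532 bp in DMSO. The standard lists had this island at 88 and 107.8 kb in DMSO and 88.4 and 92.8 kb with GSK126. Most of the breaking up was not seen there. FENDRR, a long noncoding RNA gene that starts 1.43 kb from FOXF1 in the opposite direction, was 96.7% and 100% covered in DMSO and 93.3% and 96.2% with GSK126 in the spike-in lists. Between FOXF1 and FOXC2, MTHFSD had no H3K27me3 in any list and an H3K4me3 island over 13.3% and 7.39% of its length in DMSO.

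**Figure D3:**
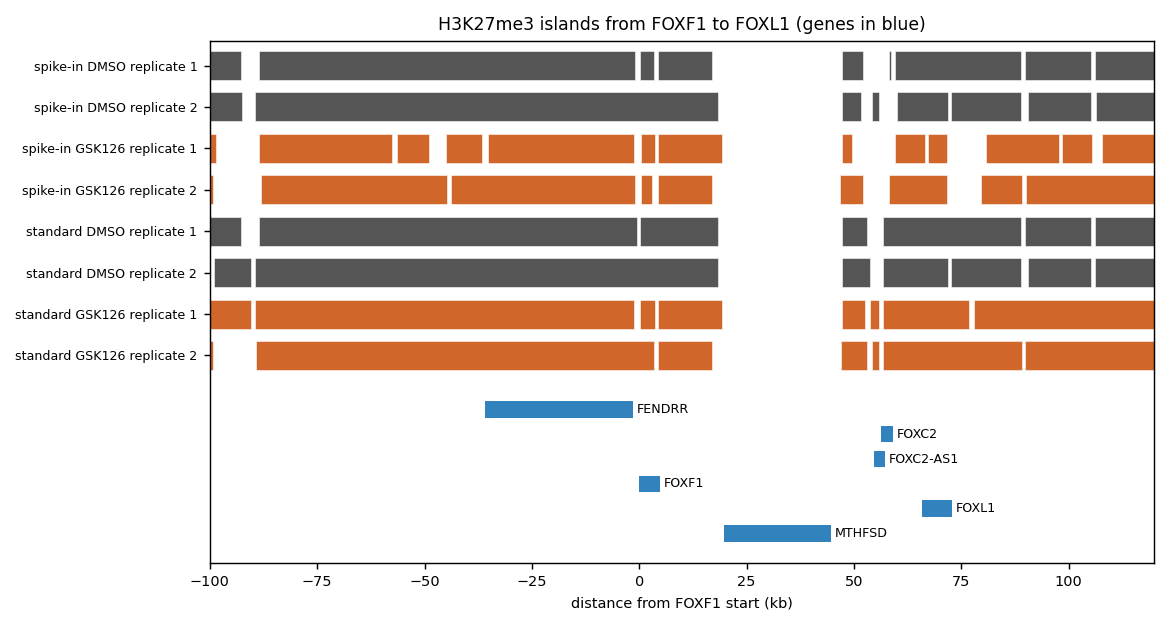
H3K27me3 islands by distance from the FOXF1 start (kb), 1 row per list (grey DMSO, orange GSK126), with genes in blue below. The domain is broken by a gap over MTHFSD in every row, and it holds 13 and 9 islands with GSK126 against 9 and 8 in DMSO in the spike-in lists, and 8 and 7 against 7 and 8 in the standard lists.

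Among the genes under H3K4me3, no change of at least 10 points in covered share repeated in both replicates. FOXC1, FOXD1, FOXD2 and FOXE1 could be called lower and none was, in the spike-in or the standard lists, where 3.82% and 3.77% of all genes were. None of 8 genes was called higher, against 0.0513% and 0.0461% of all genes. The covered length over the 9 genes had a log2 ratio of 0.03 ± 0.13 in the spike-in lists and 0.03 ± 0.09 in the standard lists (mean ± SD, n = 2). The score-implied tags had a log2 ratio of -0.23 ± 0.072 and 0.03 ± 0.17.

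FOXC1 (chr6:1610150-1614132, plus strand), a factor of eye, heart and skeletal development, was covered by H3K4me3 over 100% and 72.4% in DMSO and over 100% and 75.7% with GSK126 in both kinds of list. The replicates differed more than the treatments. Its score-implied tags in the spike-in lists were 30.8 and 12.3 in DMSO against 28.5 and 9.39 with GSK126. FOXD1 (chr5:72740654-72744602, minus strand), which marks the stroma of the developing kidney, was covered over 63.9% and 30.3% in DMSO and 87.4% and 30.3% with GSK126 in the spike-in lists. In the standard lists its coverage was 67.2% and 30.3% with GSK126. Its tags were 30.3 and 9.84 in DMSO against 21.9 and 6.07 with GSK126 in the spike-in lists. The log2 ratio was -0.58 ± 0.16 there and -0.21 ± 0.29 in the standard lists (n = 2 each). Over all genes with H3K4me3 islands in every library compared, the mean ratio had a median of -0.15 and a 5th percentile of -0.48 in the spike-in lists. In the standard lists these were 0.09 and -0.24.

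FOXD2 (chr1:47903716-47906363, plus strand), a kidney and skeletal factor, had 62.1% and 66.4% under H3K4me3 in DMSO and 83.6% and 51.6% with GSK126 in the spike-in lists, so that the replicates moved in opposite directions. It had the highest H3K4me3 of the set by score-implied tags, with 71.8 and 22.0 in DMSO and 63.5 and 22.3 with GSK126. FOXE1 (chr9:100615508-100618999, plus strand), a thyroid factor, had 78.2% and 56.3% covered in DMSO and 56.3% in each GSK126 library in the spike-in lists. In the standard lists its coverage was 70.9% and 56.3% with GSK126. Its tags in the spike-in lists were 46.3 and 19.4 in DMSO against 47.4 and 16.2 with GSK126. In the spike-in lists 2 of the 4 genes (FOXC1 and FOXD1) had fewer tags in both replicates, against 53% of all genes with islands, and in the standard lists 1 of 4 (FOXD2) had more, against 40.9%, and 1 (FOXD1) had fewer. Replicate 1 gave 2 to 4 times the tags of replicate 2 at each of these genes in the spike-in comparison, beside its greater density of tags over the genome.

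FOXD3 (chr1:63788238-63790799, plus strand), a regulator of neural crest and of pluripotent cells, lay between islands of both marks. An H3K27me3 island touched its upstream region in DMSO replicate 1 alone (3.57%, spike-in list), and the other lists had 0%. H3K4me3 islands ended 1.44 to 2.64 kb from the region in all 6 lists without reaching it. Within 50 kb of its start H3K27me3 covered 15.4 and 18 kb in DMSO and 6.6 and 4.6 kb with GSK126 in the spike-in lists, whereas the standard lists gave 14.8 and 13.6 kb in DMSO and 23.4 and 12 kb with GSK126, where the replicates disagreed in direction.

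The genes without H3K27me3 differed in how near such an island came. At FOXD2 it lay 4.04 and 2.24 kb away in DMSO and 17.04 and 18.44 kb away with GSK126 in the spike-in lists, and 4.04 and 4.44 kb against 16.04 and 15.64 kb in the standard lists. At FOXC1 it lay 11.95 and 12.15 kb away in DMSO and 19.95 and 26.15 kb away with GSK126 in the spike-in lists, and the standard lists gave 12.15 and 12.55 kb against 19.95 and 26.15 kb. Both GSK126 libraries were farther than both DMSO libraries at these genes, in either kind of list. GSK126 lists also held fewer H3K27me3 islands, 19812 and 16401 against 35901 and 35522 in DMSO in the spike-in lists. In the standard lists they held 22124 and 22624 against 26380 and 33341. Distances to the nearest island grow in general as islands become fewer, and whether these genes differ from others in this was not tested. At FOXE1 the distance was 81.6 and 77.0 kb in DMSO and 489 and 488 kb with GSK126 in the spike-in lists, but 80.6 and 77.0 kb in DMSO and 82.2 and 86.8 kb with GSK126 in the standard lists. FOXD1 had no H3K27me3 island within 140 kb in any list, and within 50 kb of its start or that of FOXE1 the covered length was 0 throughout. These distances were chosen for description after the values were seen and have no count over all genes beside them.

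**Figure D4:**
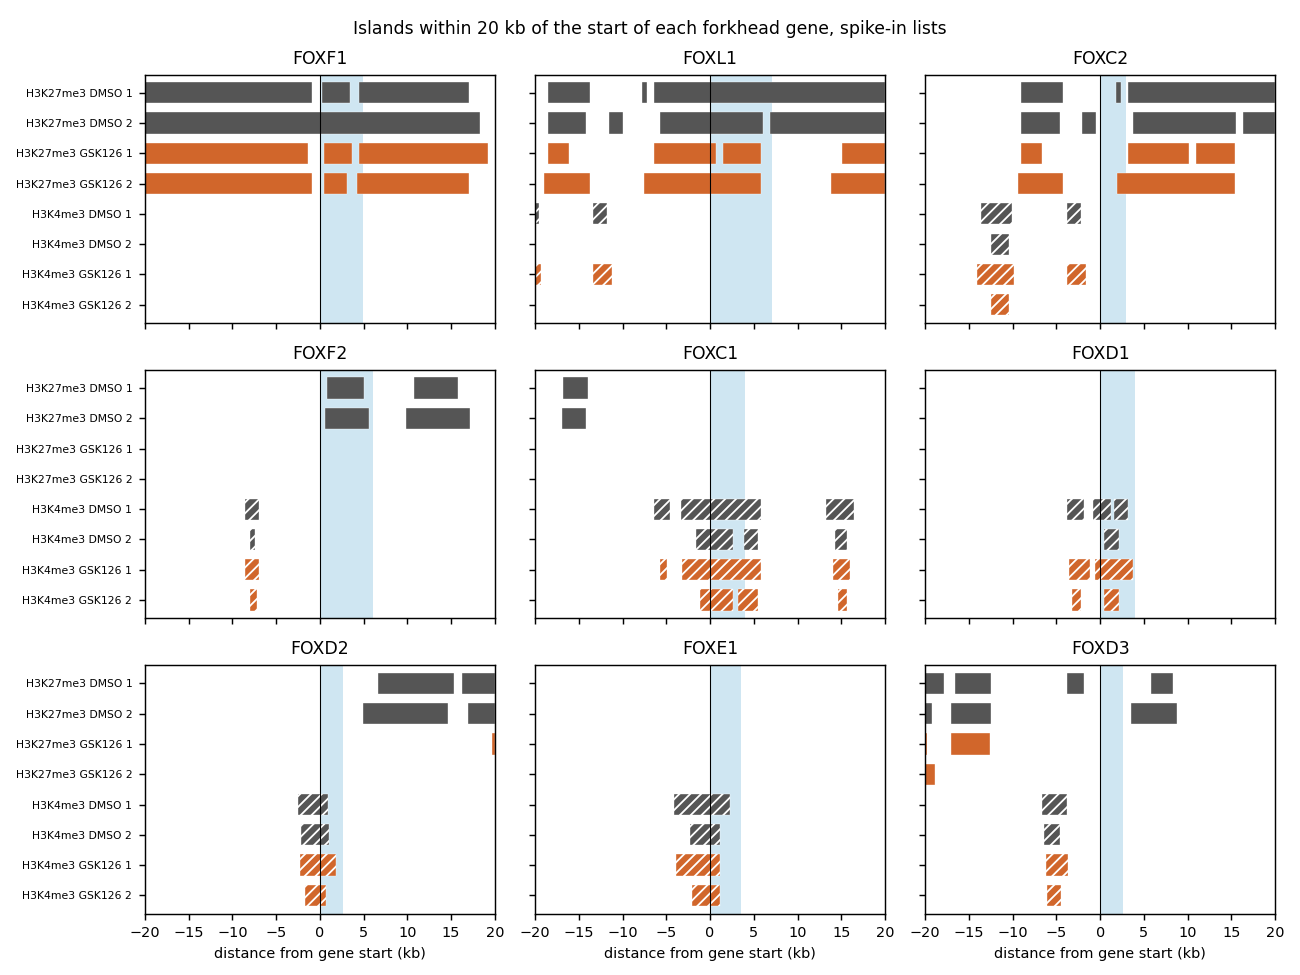
Islands within 20 kb of each gene start in the spike-in lists, by distance from the start along the gene (kb). Each row is 1 library, plain bars are H3K27me3 and hatched bars H3K4me3, grey for DMSO and orange for GSK126, and light blue marks the gene; at FOXF2 and FOXD2 the DMSO H3K27me3 islands have no counterpart with GSK126 over most of the window.

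FOXC1 and FOXF2 are neighbours on chromosome 6, 214 kb apart, with FOXQ1, another forkhead gene, 74.8 kb before FOXF2. From 20 kb before FOXQ1 to 20 kb past FOXC1, H3K27me3 covered 53.6 and 60.8 kb of 342 kb in DMSO and 9.2 and 13.2 kb with GSK126 in the spike-in lists, and 50.4 and 46 kb against 36.8 and 19.8 kb in the standard lists. GSK126 libraries thus had less of this stretch covered than their DMSO partners in either kind of list, as they had of the whole genome. The difference from the chromosome 16 region was not tested. FOXQ1 had 100% and 89.96% under H3K4me3 in DMSO and no H3K27me3, so FOXF2 under H3K27me3 stood between forkhead genes under H3K4me3. In DMSO the score-implied H3K27me3 tags per window there were 5.15 and 6.54 in the spike-in lists, below the 10.9 and 15.1 of the chromosome 16 region.

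H3K4me3 reached the 4 genes under H3K27me3 in a single library. FOXC2 had 7.47% of its length, all upstream, under an H3K4me3 island in GSK126 replicate 1, in both kinds of list, and 0% in DMSO and in GSK126 replicate 2. In the standard lists of that replicate 366 bp of it lay under both marks, the only bases of the 9 genes that did in any list. An H3K4me3 island of 1.6 kb was also present in DMSO replicate 1, where it ended 0.235 kb short of the FOXC2 region. With GSK126 in replicate 1 the island there was 2.2 kb long in the spike-in list and 1.8 kb in the standard list. The 7.47% thus came from an island edge that crossed the bound of the region. FOXF1, FOXF2 and FOXL1 had no H3K4me3 in any list, and the nearest such island to FOXF2 stayed 5.01 to 5.41 kb away.

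Among 35 other forkhead genes, 12 had at least 10% of their length under H3K27me3 in both DMSO libraries, 9 under H3K4me3, 3 under both and 17 under neither. For H3K27me3, 8 of the 12 were called lower in the spike-in lists, against 73.6% of all genes, and 4 had no island left, against 23.3%. By the standard lists, 2 of 11 were called lower (FOXI2 and FOXR1), against 25.2%, and 1 had none left (FOXR1), against 6.29%. None was called for H3K4me3. Those with at least 50% of their length under H3K27me3 in both DMSO libraries of the spike-in lists were FOXA3, FOXB2, FOXI2, FOXL2, FOXN1, FOXN4, FOXR1 and FOXS1. Like FOXF2, FOXR1 was covered over part of its length in DMSO (51.8% and 58.7%) and at 0 in every GSK126 list, and it had 4.86 and 5.89 score-implied tags per window in the DMSO spike-in lists. FOXB2 was 100% covered in every list, with 7.20 and 11.9 tags in DMSO against 2.23 and 4.81 with GSK126 in the spike-in lists. FOXA1, a factor of endodermal epithelia such as that of the lung, had 100% and 73.6% under H3K4me3 in DMSO and no H3K27me3; expression was not measured in these libraries.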

How the data were processed

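H3K27me3 and H3K4me3 ChIP-seq of PC9 cells gave 8 libraries and 14 lists of islands. The authors removed duplicate and non-unique 50-nt tags aligned to hg19 (BWA, SAMtools 0.1.18), removed further tags at random by the standard or the spike-in rule, and called islands in each library with SICER 1.1 (windows of 200 bp, E-value 1, random background, and a gap size of 600 bp for H3K27me3 or 200 bp for H3K4me3). Each deposited list gives an interval and its score, the summed negative log probability of the tags in its windows, which depends on depth.

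Groups came from the sample titles. The titles carry no replicate numbers, so the numbers follow the order of the samples, and libraries were paired because the authors had removed tags within replicates. Genes were those of GENCODE 44 lifted to GRCh37, the same build as hg19. Tags per window were solved from the scores of 2-window islands, and score-implied tags are the uniform tags per window that give the mean score of an island. They belong to whole islands, which can exceed a gene, and are an approximation, since windows differ. On 10225 simulated islands the implied tags were too high by a median of 0.067 on the log2 scale. In a separate simulated set a true log2 ratio of -2 was returned as -2.01 (95% of islands between -2.30 and -1.82). Island bounds were held equal in both conditions there and no islands were called. That range thus does not cover islands that change their bounds or drop out. The members were fixed by name, and the region and call rules were the same for every gene. The members and lists were chosen with earlier results of these data known. Named neighbours are those within the same regions, other forkhead genes those at least 50% covered by H3K27me3 in DMSO; FOXA1 and the distances to islands were added after values were seen, as were the 2 regions and the counts of score-implied tags and of genes with no island left. Alternatives were a score threshold 2 times as strict, a minimum island length (2000 bp for H3K27me3, 600 bp for H3K4me3), other gene regions, a 20-point rule, the standard DMSO list and each replicate left out. The promoter stretch of FOXF1 is not reported here. Python 3.11.15, NumPy 2.4.6, SciPy 1.17.1 and Matplotlib 3.10.9 were used.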

Additional observations from a re-analysis of the deposited data

How the results depend on the processing

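Of 121 alternative values for 17 results, 96 stayed within 1 SD or within 1.5 times the count, 24 moved and 1 turned direction. Another 7 values changed sign around 0, all of them H3K4me3 log2 ratios within 1 SD of 0 to begin with, and the lowest reached -0.092. With 2 libraries a group, the SD behind these comparisons is itself poorly known, and for the H3K27me3 covered length in the spike-in lists it was so small that most alternatives moved past it. That log2 ratio was -0.65 under the stricter threshold, -0.66 with the minimum island length, -0.77 for the gene body alone, -0.68 within 2 kb of the gene start and -0.88 against the standard DMSO list, always lower with GSK126. The log2 ratio of score-implied tags for H3K27me3 was -0.98 against the standard DMSO list. The H3K27me3 covered length of the standard lists gave -0.32 with the minimum island length, -0.44 for the gene body alone and 0.0068 within 2 kb of the gene start, where the direction turned. The H3K4me3 covered length in the standard lists gave 0.12 for the gene body alone.

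The count of genes called lower for H3K27me3 in the spike-in lists was 1 (FOXF2) under the stricter threshold, the minimum island length, the gene body alone and 20 points, each of which dropped FOXC2, and within 2 kb of the gene start the 2 genes were FOXF1 and FOXF2. In the standard lists it was 1 under the stricter threshold (FOXF1), within 2 kb of the gene start (FOXF2) and at 20 points (FOXF2). The call of FOXC2 as higher went to 0 under the stricter threshold, the minimum island length and the gene body alone. Leaving out a replicate gave 3 to 3 H3K27me3 genes lower in the spike-in lists, adding FOXF1 without replicate 1 and FOXL1 without replicate 2. For H3K4me3 it gave 1 to 1 lower (FOXD2 without replicate 1, FOXE1 without replicate 2) and 0 to 2 higher (FOXD1 and FOXD2 without replicate 2) in the spike-in lists, and 0 to 1 lower and 0 to 1 higher (FOXD2 in each) in the standard lists. Without the replicate block, that is from the group means rather than within pairs, the log2 ratio of the H3K27me3 covered length was -0.73 in the spike-in lists and -0.26 in the standard lists, and no such value turned direction.

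Coverage is a call at a threshold that depends on depth, so a share of 0 is a limit of detection. Coverage did not always rise with depth. H3K27me3 islands of DMSO replicate 1 covered 275 Mb at 1.65 tags per window and 279 Mb when cut to 1.36. In DMSO replicate 2 they covered 300 Mb at 2.33 and 258 Mb when cut to 1.55. GSK126 spike-in lists rested on 0.382 and 0.455 H3K27me3 tags per window, DMSO lists on 1.65 and 2.33. For H3K4me3 the gap in depth lay between the replicates, with replicate 1 the deeper.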

Other observations

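The median covered share of the 9 genes was 0 in 11 of the 14 lists, and no list had islands at more than 5 of them. The protein-coding genes other than forkhead genes whose shares over the 14 lists came nearest to that median were NNAT, ATP6V0A4, KLK7, OR52N2 and SLC16A4, with mean absolute differences of 0.392 to 0.755 percentage points. A gene at 0 in every list, of which there were 2833, differed by 1.32 points, so this likeness describes nearly unmarked genes and not the pattern of any 1 forkhead gene.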
